A study of Caenorhabditis elegans with 6 samples.

Results

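The UDP-glucuronosyltransferase genes of Caenorhabditis elegans, named ugt, were followed in the transcriptome of adult worms fed RNA interference (RNAi) bacteria against bcat-1. Members were all protein-coding genes of the deposited table whose symbol is ugt- and a number, which gave 65 of 46589 genes. UDP-glycosyltransferases sit in the membrane of the endoplasmic reticulum and move a sugar from a UDP-sugar donor onto small fat-soluble molecules, which makes these more soluble in water and easier to excrete. They act in the conjugation phase of detoxification, after oxidation by cytochrome P450 enzymes and before export by membrane transporters. In worms the family is large, the sugar attached is often glucose, and the intestine is a main site of xenobiotic metabolism. The coding regions of the members are alike in length, at 500 to 557 residues with a median of 529, spread over 4 to 11 exons (Ensembl release 115 on WBcel235).

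Libraries were made from total RNA of whole wild-type adults (strain Bristol N2) harvested 5 days past the L4 larval stage. There were 3 libraries labelled bcat-1 RNAi and 3 labelled control. According to the methods of the study, young adults were fed E. coli HT115 carrying either the bcat-1 RNAi construct or the empty vector L4440, and were washed daily to remove progeny. Both groups thus share strain, age, bacterial host and RNAi feeding. The comparison asks which ugt transcripts differ after feeding of this construct, whose target encodes the enzyme that starts the breakdown of branched-chain amino acids. Nothing in the labels ties the libraries to separate cultures, so p-values reflect only the spread between these samples, and that spread may be technical.

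Counted reads numbered 38347771 to 44137496 in libraries labelled bcat-1 RNAi and 32784443 to 43274827 in control libraries. The targeted gene itself was not lower on average in these libraries. By quantitative PCR after a shorter treatment, the paper reports that this RNAi abolished bcat-1 expression, and it reports a rise of branched-chain amino acids. The level of bcat-1 was 223, 102 and 287 CPM in libraries labelled bcat-1 RNAi, against 135, 135 and 162 CPM in controls, where CPM are counts per 1e+06 reads after TMM scaling between libraries. These groups overlapped (log2 fold change 0.50, SE 0.30, edgeR quasi-likelihood adjusted p = 0.169), and without RNAi replicate 2 bcat-1 was called higher (log2 fold change 0.79, adjusted p = 0.00291). Directions and fold changes here therefore compare libraries labelled bcat-1 RNAi with libraries labelled control, whatever the state of the target. Within its group RNAi replicate 3 was the most distant library, at 54.5 and 71.9 chi-square units per degree of freedom from RNAi replicates 1 and 2, which lay 15.4 apart. For the markers of cell types below, the shares over all tested genes were 36% higher and 25.6% lower. All 13 germline markers were lower, with a summed level of 4377 to 5871 CPM in libraries labelled bcat-1 RNAi and 9412 to 11470 CPM in controls. These markers lay in the level classes above 80.7 CPM, described below, where 62.7% and 65.1% of all tested genes were lower. Of 12 neuronal markers 11 were higher, with sums of 628 to 706 CPM in libraries labelled bcat-1 RNAi and 380 to 406 CPM in controls. Of 10 intestinal markers 5 were higher and 1 was lower, with overlapping sums of 1260 to 1434 CPM in libraries labelled bcat-1 RNAi and 992 to 1397 CPM in controls. Of 7 epidermal markers 5 were higher and none was lower, though their sums overlapped at 227 to 272 CPM in libraries labelled bcat-1 RNAi and 242 to 284 CPM in controls. All 5 pharyngeal and all 3 sheath glia markers were higher, and of 8 muscle markers 3 were higher and 4 lower. Of 4 tested sperm markers 2 were higher, of 5 of the early embryo 1 was higher and 3 were lower, and of 2 coelomocyte markers 1 was lower. No germline, neuronal or intestinal marker was at 0 in any library. In whole-animal RNA, fewer cells of a type and less RNA per cell cannot be told apart, and the part of these shifts in the ugt results was not tested.

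The family changed in both directions. Of the 65 members, 60 had enough reads for the test and 38 of these (63.3%) were called at an adjusted p under 0.05 by edgeR's quasi-likelihood test. This share lies near the 61.6% called among all 16391 tested genes. Of the tested members 26 (43.3%) were higher and 12 (20%) were lower, where 36% of all tested genes were higher and 25.6% were lower. Of the rises, ugt-9, ugt-36, ugt-37, ugt-57 and ugt-65 had enough reads for the test only with libraries labelled bcat-1 RNAi, where they are high. No called fall entered only with the controls, so the filter on reads favours the count of rises. The same filter was applied to all genes. Most members lay at lower levels, in classes described below where 42.9% to 57.4% of genes were higher and 1.71% to 18.5% lower. Rises of at least 2-fold were called for 16 members (26.7%, against 24.3% of all tested genes). Falls of at least 2-fold were called for 5 members (8.33%, against 2.9%). The values of the groups did not overlap for 43 members (71.7%, against 71.2%), of which 27 lay above and 16 below the controls. The median log2 fold change of the tested members was 0.24, against 0.15 over all tested genes, and the quartiles of the members were -0.44 and 1.02. No member called in one direction was called in the other under any of the 17 alternative settings. Of the 26 calls of a rise, 23 held without any 1 library, and those of ugt-1, ugt-23 and ugt-37 did not. Of the 12 calls of a fall, 9 held without any 1 library, and those of ugt-27, ugt-44 and ugt-61 did not. The ranked plot of fold changes shows all 60 tested members.

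**Figure D1:**
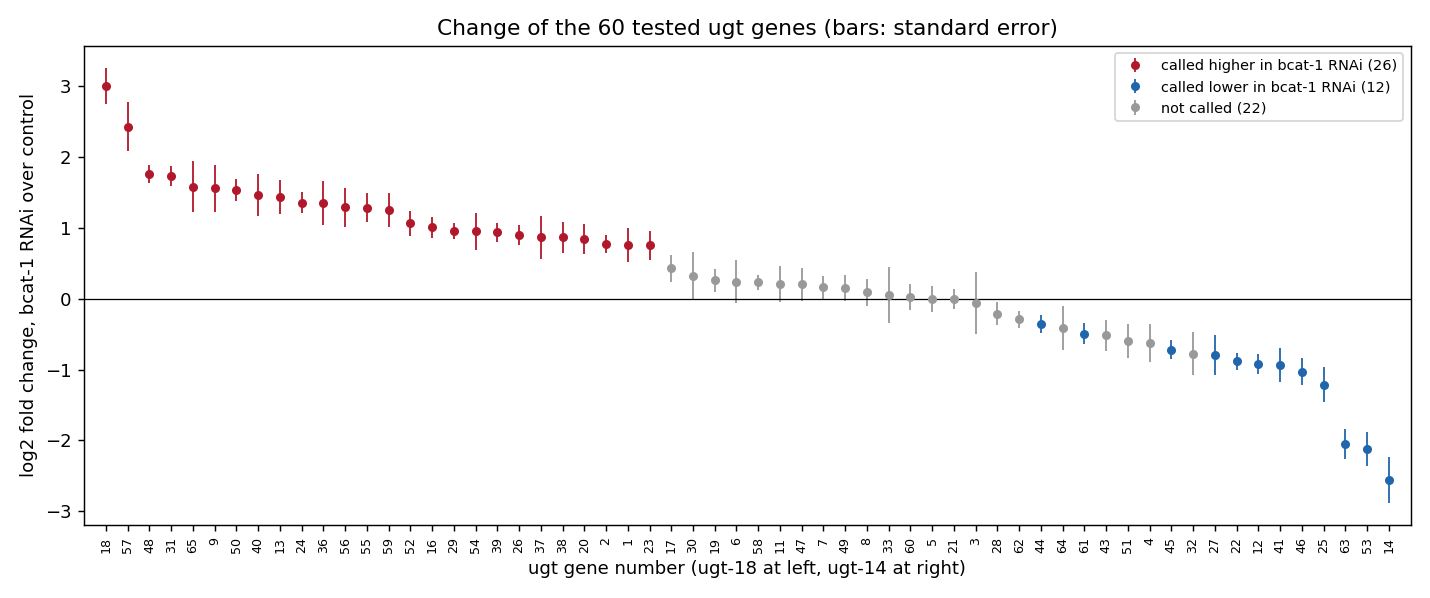
Log2 fold change of each tested ugt gene, bcat-1 RNAi over control (y axis), with members ranked along the x axis and bars giving the standard error. The values run from 3.01 for ugt-18 to -2.56 for ugt-14, and the 22 members in grey, most of them between the called rises and falls, were not called.

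The make-up of ugt transcript differed between the groups, while a difference in its total depended on the scale. Levels of different genes are compared here by the deposited RPKM, reads per kilobase of exon and per 1e+06 reads. The summed RPKM of all 65 members was 400, 382 and 450 in libraries labelled bcat-1 RNAi, against 377, 317 and 314 in controls. On this scale the groups did not overlap, by a narrow margin. The summed CPM after TMM scaling was 668, 625 and 685 in libraries labelled bcat-1 RNAi and 707, 631 and 585 in controls, and these overlapped. The members took 0.0701%, 0.0670% and 0.0787% of all counted reads in libraries labelled bcat-1 RNAi and 0.0660%, 0.0555% and 0.0549% in controls. The family was a very small part of the counted reads in every library.

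The member with the highest level in all 6 libraries was ugt-62 (M88.1, chromosome III, 4537281 to 4540623). It had 78.7 ± 7.61 RPKM in libraries labelled bcat-1 RNAi and 80.7 ± 11.3 RPKM in controls (SD, n = 3 each). Its CPM were 128, 113.6 and 128 in libraries labelled bcat-1 RNAi and 167, 159 and 126 in controls, so the groups overlapped and it was not called (log2 fold change -0.29, SE 0.12, edgeR adjusted p = 0.0611). Without control replicate 3 the same test called it lower (log2 fold change -0.42, adjusted p = 0.0133). Its share of the summed RPKM of the family does not depend on the scaling between libraries. That share was 19.6%, 18.7% and 19.2% in libraries labelled bcat-1 RNAi and 24.2%, 25.8% and 21.96% in controls, with no overlap.

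The second place was taken by ugt-50 (T07C5.1, chromosome X, 12691573 to 12695652) in every library labelled bcat-1 RNAi. In no control library was it among the first 5. It had 67.7, 61.7 and 84.9 CPM in libraries labelled bcat-1 RNAi, against 29.2, 23.8 and 20.8 CPM in controls. All RNAi values lay above all control values, and the rise was called (log2 fold change 1.54, SE 0.16, edgeR adjusted p = 6.79e-05). Its share of the family rose to 9.59%, 9.36% and 11.7% in libraries labelled bcat-1 RNAi, against 3.90%, 3.57% and 3.37% in controls. The exons of ugt-50 overlap by 340 bases those of nhr-26, a nuclear receptor gene on the other strand. The libraries do not record strand, but nhr-26 itself had at most 8 reads in any library.

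Of the other members with a high mean level, ugt-58 (F35H8.6, chromosome II, 9584384 to 9586784) had 57.8, 49.4 and 48.6 CPM in libraries labelled bcat-1 RNAi, against 43.1, 42.7 and 46.8 CPM in controls. Its groups did not overlap, but it was not called (log2 fold change 0.23, SE 0.10, edgeR adjusted p = 0.0793). The call depends on the setting, since the same test gave an adjusted p of 0.0267 without RNAi replicate 3 and of 0.00354 with scaling by library size only. The gene ugt-64 (C07G3.9, chromosome V, 3503080 to 3506352) had 46.7, 26.1 and 26.3 CPM in libraries labelled bcat-1 RNAi and 66.5, 34.8 and 31.1 CPM in controls. In each group 1 library stood well above the other two, the groups overlapped, and ugt-64 was not called (log2 fold change -0.42, SE 0.31, edgeR adjusted p = 0.263). The gene ugt-44 (F01D4.2, chromosome IV, 10469741 to 10471899) had 35.0, 36.4 and 31.2 CPM in libraries labelled bcat-1 RNAi and 49.8, 37.3 and 43.8 CPM in controls. Its RNAi values lay below its controls by a small step and it was called lower (log2 fold change -0.35, SE 0.13, edgeR adjusted p = 0.0357). That call was lost without any of 5 of the 6 libraries, with adjusted p of 0.0566 to 0.117, and remained only without control replicate 2. The first 5 members by RPKM held 46.1% to 50.3% of the family's sum in libraries labelled bcat-1 RNAi and 48.99% to 53.4% in controls.

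**Figure D2:**
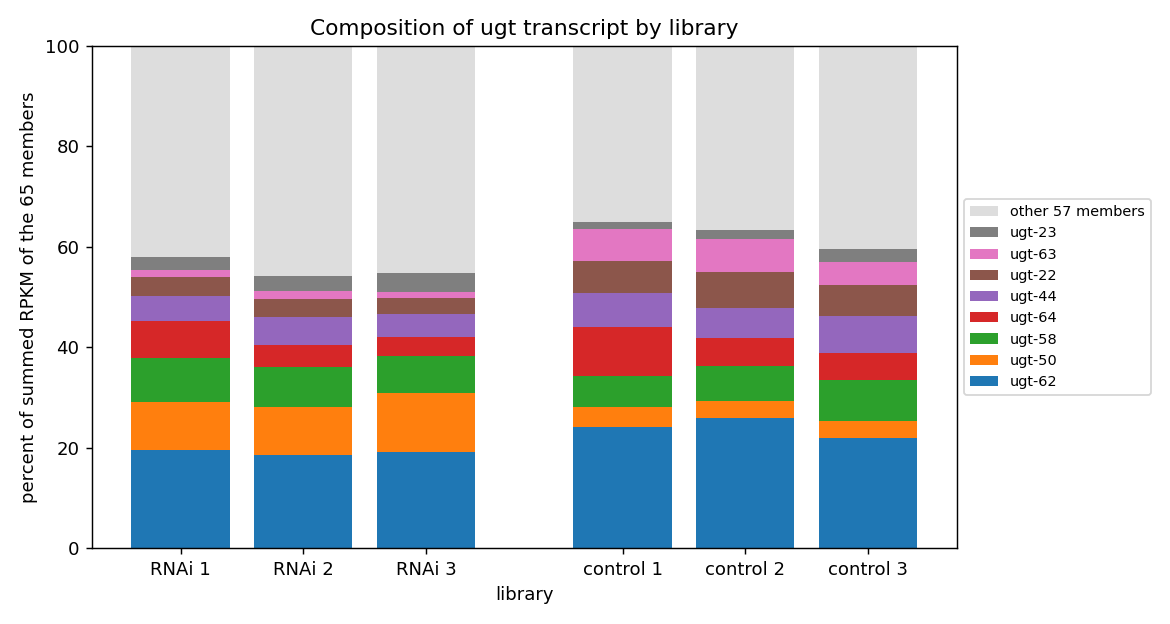
Percent of the summed RPKM of the 65 members (y axis) held by the 8 members with the highest group mean share and by the other 57, in each library (x axis). The part of ugt-50 is wider in every RNAi library (9.36% to 11.7%) than in the controls (3.37% to 3.90%), and the parts of ugt-62, ugt-22 and ugt-63 are narrower.

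Among members with at least 1 CPM in the higher group, the largest rise was that of ugt-18 (ZC443.5, chromosome V, 12820260 to 12822778). It had 3.74, 3.15 and 2.90 CPM in libraries labelled bcat-1 RNAi, against 0.520, 0.277 and 0.386 CPM in controls (log2 fold change 3.01, SE 0.26, edgeR adjusted p = 2.56e-05). The groups were far apart, the lowest RNAi library being several times the highest control. The gene ugt-57 (F01E11.1, chromosome X, 6991727 to 6994162) had 2.00, 1.80 and 1.27 CPM in libraries labelled bcat-1 RNAi, against 0.396, 0.139 and 0.361 CPM in controls (log2 fold change 2.43, SE 0.34, edgeR adjusted p = 0.000392). Both genes were scarce in controls, and ugt-57 had enough reads for the test only with libraries labelled bcat-1 RNAi. That the groups do not overlap was required of all 16 genes of the largest rises and falls, so it is a description of the choice here and below.

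At a higher level, ugt-48 (C18C4.3, chromosome V, 5545669 to 5548062) had 15.5, 14.5 and 15.3 CPM in libraries labelled bcat-1 RNAi, against 4.21, 4.71 and 4.43 CPM in controls. The libraries of each group were close together, and the adjusted p of this gene was the lowest among the members (log2 fold change 1.76, SE 0.13, edgeR adjusted p = 1.14e-05). Its exons overlap those of cft-1 on the other strand by 121 bases, and cft-1 had at most 1.16 CPM in any library. The gene ugt-31 (Y39G10AR.6, chromosome I, 2333338 to 2338693) had 14.7, 12.6 and 13.5 CPM in libraries labelled bcat-1 RNAi, against 4.56, 3.81 and 3.86 CPM in controls (log2 fold change 1.73, SE 0.14, edgeR adjusted p = 2.27e-05). Both genes were at 12 CPM or more in each library labelled bcat-1 RNAi and under 5 CPM in each control. In shares of the summed RPKM, ugt-48 held 2.51% ± 0.054 in libraries labelled bcat-1 RNAi and 0.764% ± 0.099 in controls (SD, n = 3 each). The share of ugt-31 was 2.18% ± 0.125 in libraries labelled bcat-1 RNAi and 0.673% ± 0.030 in controls (SD, n = 3 each).

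The remaining members of this set were ugt-13, ugt-9 and ugt-40, all on chromosome V. The gene ugt-13 (H23N18.1, 4908884 to 4911399) had 7.46, 9.002 and 12.401 CPM in libraries labelled bcat-1 RNAi, against 4.51, 3.29 and 2.83 CPM in controls (log2 fold change 1.44, SE 0.24, edgeR adjusted p = 0.000959). The gene ugt-9 (T19H12.1, 4896048 to 4897969) had 1.301, 1.33 and 1.07 CPM in libraries labelled bcat-1 RNAi, against 0.248, 0.346 and 0.644 CPM in controls (log2 fold change 1.56, SE 0.33, edgeR adjusted p = 0.0034). The RNAi values of ugt-13 were spread more widely than its control values, and without control replicate 3 the log2 fold change of ugt-9 was 2.06. Like ugt-57, ugt-9 had enough reads for the test only with libraries labelled bcat-1 RNAi. The gene ugt-40 (F10D2.5, 7139475 to 7141964) had 1.65, 1.48 and 2.02 CPM in libraries labelled bcat-1 RNAi, against 0.644, 0.346 and 0.824 CPM in controls (log2 fold change 1.47, SE 0.30, edgeR adjusted p = 0.00265). Its lowest control value was that of replicate 2.

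The largest falls reached both scarce and abundant members. The largest in fold was that of ugt-14 (H23N18.2, chromosome V, 4906253 to 4908304), with 0.279, 0.338 and 0.499 CPM in libraries labelled bcat-1 RNAi, against 2.48, 2.70 and 1.47 CPM in controls (log2 fold change -2.56, SE 0.32, edgeR adjusted p = 0.000205). The gene ugt-53 (T03D3.1, chromosome V, 2849343 to 2852028) had 0.325, 0.254 and 0.317 CPM in libraries labelled bcat-1 RNAi, against 1.46, 1.21 and 1.24 CPM in controls (log2 fold change -2.12, SE 0.25, edgeR adjusted p = 0.000126). Both genes were below 0.5 CPM in every library labelled bcat-1 RNAi and above 1 CPM in every control.

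The largest fall in level was that of ugt-63 (C04F5.7, chromosome V, 5108180 to 5110772). It had 9.41, 10.3 and 7.32 CPM in libraries labelled bcat-1 RNAi, against 44.5, 40.99 and 26.2 CPM in controls. Every RNAi library lay far below the lowest control (log2 fold change -2.05, SE 0.21, edgeR adjusted p = 6.98e-05). In RPKM the means were 5.67 ± 0.759 in libraries labelled bcat-1 RNAi and 19.7 ± 5.01 in controls (SD, n = 3 each), and the share of the family's sum fell to 1.09% to 1.68% in libraries labelled bcat-1 RNAi, against 4.54% to 6.60% in controls. The gene ugt-22 (C08F11.8, chromosome IV, 13639260 to 13644567) had 28.7, 25.5 and 26.2 CPM in libraries labelled bcat-1 RNAi, against 51.9, 54.1 and 42.0 CPM in controls (log2 fold change -0.88, SE 0.12, edgeR adjusted p = 0.000344). Its exons overlap those of srz-29 on the other strand by 309 bases, and srz-29 had at most 2 reads in any library.

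The other 4 of the largest falls lay between 3 and 22 CPM. The gene ugt-25 (C10H11.3, chromosome I, 4731606 to 4735276) had 6.50, 6.89 and 9.25 CPM in libraries labelled bcat-1 RNAi, against 21.1, 20.2 and 11.13 CPM in controls (log2 fold change -1.21, SE 0.25, edgeR adjusted p = 0.00282). The gene ugt-46 (B0310.5, chromosome X, 525928 to 530289) had 6.09, 4.33 and 3.56 CPM in libraries labelled bcat-1 RNAi, against 9.44, 9.63 and 9.40 CPM in controls (log2 fold change -1.03, SE 0.20, edgeR adjusted p = 0.00208). In ugt-25 the spread lay in the controls and in ugt-46 in libraries labelled bcat-1 RNAi, with ugt-25 lowest in control replicate 3. The gene ugt-41 (F10D2.11, chromosome V, 7161068 to 7163595) had 5.09, 7.73 and 6.60 CPM in libraries labelled bcat-1 RNAi, against 15.3, 13.3 and 8.47 CPM in controls (log2 fold change -0.93, SE 0.24, edgeR adjusted p = 0.00792). The gene ugt-12 (T19H12.9, chromosome V, 4887165 to 4889629) had 7.11, 6.78 and 5.99 CPM in libraries labelled bcat-1 RNAi, against 13.8, 12.3 and 11.3 CPM in controls (log2 fold change -0.92, SE 0.14, edgeR adjusted p = 0.000645). The call of ugt-41 was lost when control replicate 1 and RNAi replicate 3 were left out together (log2 fold change -0.73, edgeR adjusted p = 0.060), while that of ugt-12 remained.

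Control replicate 3 was the control nearest to the RNAi values in many of the falls. Among the 12 members called lower it was the lowest of the controls for 9 and the highest for 1, whereas over all 60 tested members it was the lowest for 23 and the highest for 22. Among the 26 members called higher, control replicate 2 was the lowest control for 16, and over all 60 tested members it was the lowest for 28. Spread within a group, as SD over mean, had a median over tested members of 13.5% in libraries labelled bcat-1 RNAi and of 17.7% in controls. Without control replicate 3 the test called 28 members higher and 12 lower.

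**Figure D3:**
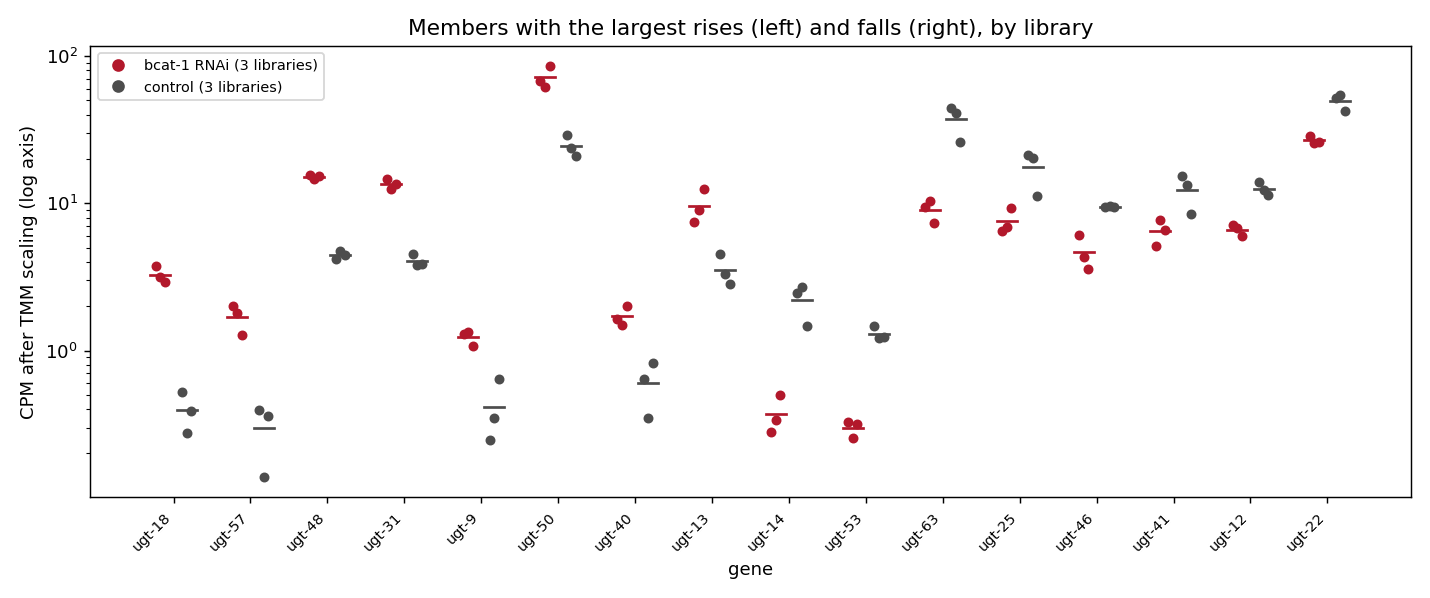
CPM after TMM scaling (y axis, log scale) in each library for the 8 largest rises (left) and the 8 largest falls (right) among members with at least 1 CPM in the higher group, with points for libraries and lines for group means. The rule that chose these 16 genes required that the groups do not overlap, and ugt-50 has the highest levels with 61.7 to 84.9 CPM in libraries labelled bcat-1 RNAi.

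The members at 10 CPM or more with the smallest change among those not called were ugt-47, ugt-58 and ugt-19. The gene ugt-47 (R04B5.9, chromosome V, 10096305 to 10098597) had 10.3, 10.7 and 17.6 CPM in libraries labelled bcat-1 RNAi and 9.81, 9.74 and 13.9 CPM in controls (log2 fold change 0.20, SE 0.23, edgeR adjusted p = 0.464). The gene ugt-19 (K08B4.3, chromosome IV, 6076686 to 6079952) had 13.5, 12.3 and 13.7 CPM in libraries labelled bcat-1 RNAi and 12.8, 11.5 and 8.63 CPM in controls (log2 fold change 0.26, SE 0.16, edgeR adjusted p = 0.183). In both genes the groups overlapped, and a difference was not detectable with this spread. With scaling by library size only, ugt-19 was called higher (log2 fold change 0.51, edgeR adjusted p = 0.0293).

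Across all genes of these libraries the change depended on the level, and the members are best read beside genes of like level. When the tested genes were divided into 10 classes of equal size by mean CPM, the median log2 fold change ran from 1.19 in the lowest class to -0.40 in the highest. Most members lay in the lower and middle classes. In the class of 9.09 to 21 CPM there were 13 members, of which 6 were higher and 4 lower, where 42.9% of all genes of the class were higher and 18.5% lower. The median log2 fold change of these 13 was 0.43, against 0.23 for the class. In the class of 4.16 to 9.09 CPM 6 of 12 members were higher and 2 lower, against 47.3% and 14.3% of the class. The median of these 12 was 0.53, against 0.41 for the class. In the class of 1.93 to 4.16 CPM 2 of 6 members were higher and none lower, against 53.3% and 9.33% of the class. The median of these 6 was 0.13, against 0.61 for the class. In the class of 0.895 to 1.93 CPM there were 11 members, of which 6 were higher and 1, ugt-14, was lower, where 52.9% of the class were higher and 5.74% lower. In the class of 0.430 to 0.895 CPM 4 of 6 members were higher and 2, ugt-53 and ugt-27, were lower, where 50.8% of the class were higher and 4.45% lower. The medians of the members in the classes starting at 0.430 and 0.895 CPM were 1.08 and 0.87, against 0.83 and 0.71 for the classes. In the lowest class 1 of 5 members was higher and none lower, against 57.4% and 1.71%, with medians of 0.05 and 1.19. In the class of 21 to 44.3 CPM 3 of 4 members were lower, namely ugt-63, ugt-22 and ugt-44, and none was higher, where 27.5% of the class were higher and 29.8% lower. The median of these 4 was -0.65, against -0.07 for the class. The class of 44.3 to 80.7 CPM, in which 14.2% of genes were higher, held ugt-50 and ugt-58. No member reached the highest class, which starts at 151 CPM.

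**Figure D4:**
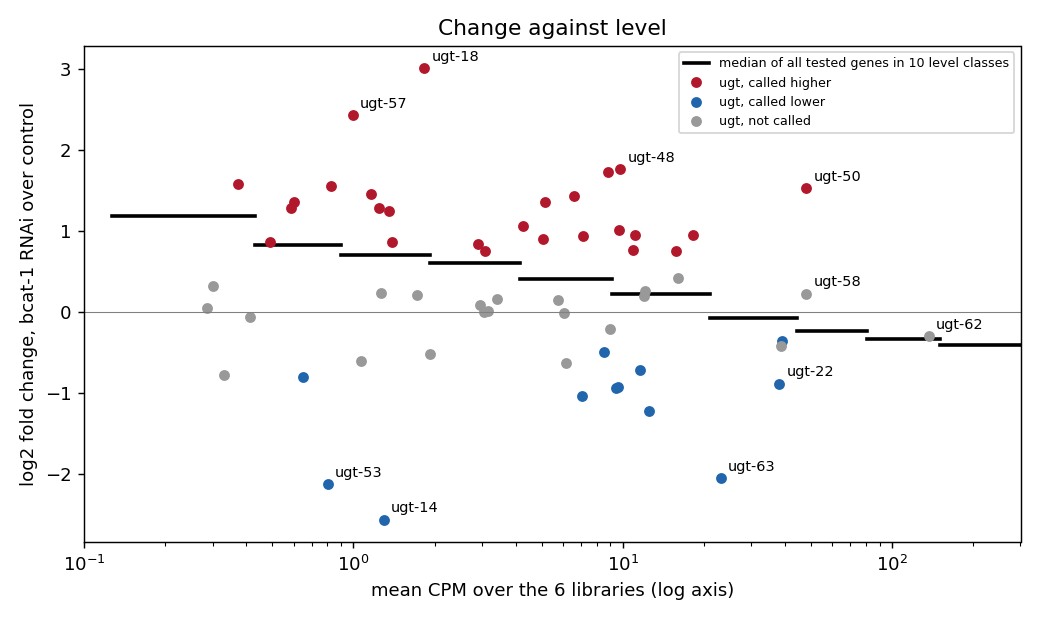
Log2 fold change of each tested member, bcat-1 RNAi over control (y axis), against its mean CPM over the 6 libraries (x axis, log scale), with black lines for the median of all tested genes in each of 10 level classes. The black lines descend from 1.19 to -0.40, and ugt-50 (1.54), ugt-18 (3.01), ugt-63 (-2.05), ugt-53 (-2.12) and ugt-14 (-2.56) lie far from them.

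The members are not spread evenly over the genome. Chromosome V holds 41, chromosome IV 12, chromosome I 5, chromosome X 4, chromosome III 2 and chromosome II 1. When members no more than 10000 bases apart were joined, 36 of the 65 fell into 11 arrays of 2 to 7 genes and 29 stood alone. Of the 32 tested members in arrays 15 were higher and 6 lower (median log2 fold change 0.35). Of the 28 tested members that stood alone 11 were higher and 6 lower (median 0.16). Over all tested genes 36% were higher and 25.6% lower (median 0.15). On chromosome X 3 members were higher (ugt-23, ugt-50 and ugt-57) and 1 was lower (ugt-46). The rule that joins neighbours uses position only, so the members named in the next paragraphs include some outside the rule for named genes.

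The array with the most members lies on chromosome V from 4887165 to 4911399 and holds, in order, ugt-12, ugt-11, ugt-9, ugt-10, ugt-8, ugt-14 and ugt-13. Within its 24235 bases ugt-9 and ugt-13 were higher, ugt-12 and ugt-14 were lower, ugt-11 and ugt-8 were not called and ugt-10 had too few reads. The last members of the array, ugt-14 and ugt-13, stand 579 bases apart on the same strand and changed in opposite directions. The ratio of ugt-13 to ugt-14 counts in the same library does not depend on the scaling. It was 26.8, 26.6 and 24.9 in libraries labelled bcat-1 RNAi, against 1.82, 1.22 and 1.93 in controls. The ratio thus differed more than 10-fold between the groups, which did not overlap. This pair was singled out after its values were seen, so no test is given for it.

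The array of 6 genes on chromosome V from 7139475 to 7169281 holds ugt-40, ugt-37, ugt-38, ugt-39, ugt-41 and ugt-36. All but ugt-41 were called higher, at log2 fold changes of 0.87 to 1.47. The call of ugt-37 was lost without any of 5 of the 6 libraries, and its exons overlap those of ugt-40 by 42 bases. The gene ugt-39 had 9.31, 8.85 and 9.88 CPM in libraries labelled bcat-1 RNAi, against 4.81, 4.99 and 4.82 CPM in controls (log2 fold change 0.94, SE 0.13, edgeR adjusted p = 0.000403). Its neighbour ugt-41, 1832 bases away on the other strand, was lower. The count ratio of ugt-39 to ugt-41 was 1.83, 1.15 and 1.498 in libraries labelled bcat-1 RNAi and 0.314, 0.374 and 0.568 in controls. In each library labelled bcat-1 RNAi ugt-39 had more reads than ugt-41, and in each control fewer. This pair, too, was chosen after its values were seen.

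On chromosome I, from 4721131 to 4735276, ugt-26, ugt-27, ugt-28 and ugt-25 follow each other on the same strand. The first of them was higher, with 6.99, 6.25 and 6.55 CPM in libraries labelled bcat-1 RNAi, against 3.69, 3.57 and 3.32 CPM in controls (ugt-26, log2 fold change 0.90, SE 0.15, edgeR adjusted p = 0.000845). The genes ugt-27 and ugt-25 were lower, and ugt-28 was not called (log2 fold change -0.21, edgeR adjusted p = 0.273). The call of ugt-27 rests on 0.402 to 0.612 CPM in libraries labelled bcat-1 RNAi and 0.695 to 1.02 CPM in controls, and was lost without any of 4 of the 6 libraries. Over all arrays there were 25 pairs of next neighbours, in 10 of which both genes were called. In 6 of these 10 pairs both genes changed in the same direction and in 4 in opposite directions. Of all called members 26 were higher and 12 lower, so pairs of opposite direction are common among them in any order. Whether neighbours differ from other pairs was not tested.

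In the remaining arrays no neighbours were called in opposite directions. The array from 12790676 to 12800271 on chromosome V holds ugt-5, ugt-4, ugt-6 and ugt-3, and none of these 4 was called, at log2 fold changes of -0.63 to 0.24. At an unadjusted p under 0.05 there was 1 of them, ugt-4 (edgeR adjusted p = 0.0644), which was also called lower with DESeq2 and, with edgeR, without control replicate 1. About 20 kilobases further on, ugt-18 and ugt-16 were both higher. The gene ugt-16 (12825024 to 12827442) had 15.1, 12.2 and 11.7 CPM in libraries labelled bcat-1 RNAi, against 6.66, 6.69 and 5.98 CPM in controls (log2 fold change 1.01, SE 0.15, edgeR adjusted p = 0.000468). Both genes of the pair ugt-55 and ugt-56 were higher, as were both of ugt-1 and ugt-2, though the call of ugt-1 was lost without any of 4 of the 6 libraries.

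**Figure D5:**
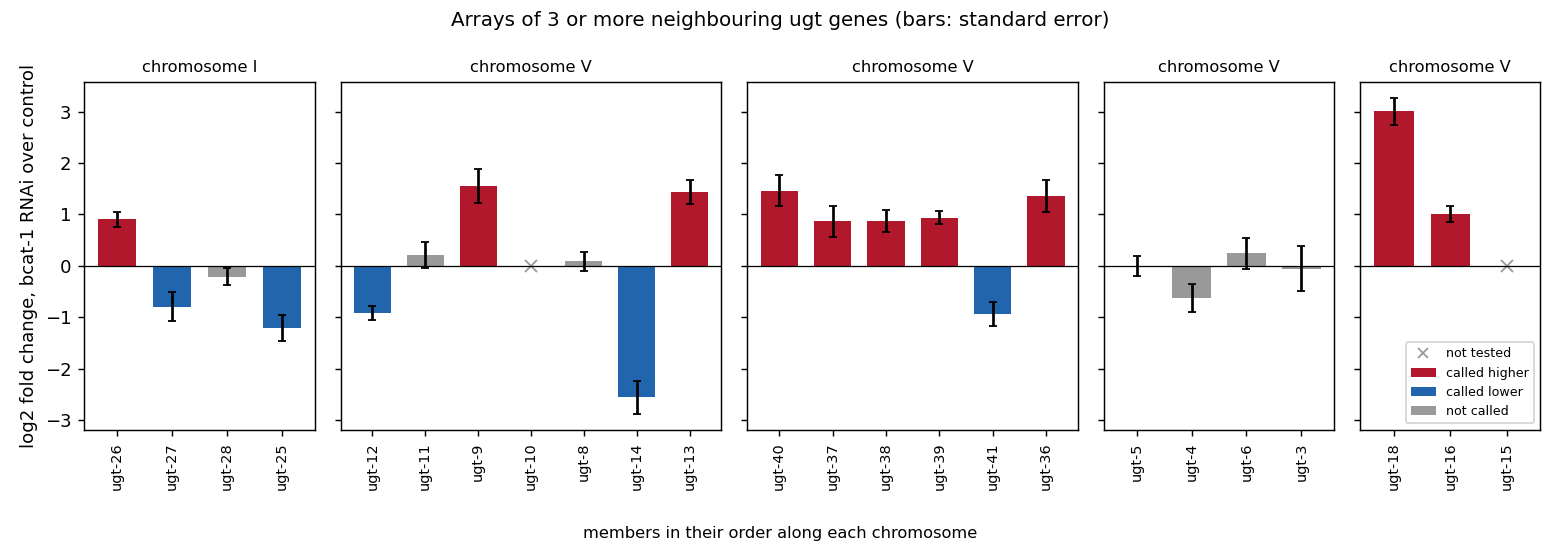
Log2 fold change, bcat-1 RNAi over control (y axis), with its standard error for the members of the arrays of 3 or more genes, in their order along the chromosome (x axis), with crosses for members that were not tested. Next neighbours that were both called differ in direction in 3 of the arrays, most widely ugt-14 (-2.56) and ugt-13 (1.44), while none of ugt-5, ugt-4, ugt-6 and ugt-3 was called.

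Of the members not yet given with their values, those called higher included ugt-29 and ugt-24. The gene ugt-29 had 22.997, 25.7 and 23.9 CPM in libraries labelled bcat-1 RNAi, against 13.1, 11.95 and 12.2 CPM in controls (log2 fold change 0.96, SE 0.11, edgeR adjusted p = 0.000135). The gene ugt-24 had 7.67, 6.76 and 7.75 CPM in libraries labelled bcat-1 RNAi, against 2.92, 2.91 and 2.81 CPM in controls (log2 fold change 1.36, SE 0.15, edgeR adjusted p = 9.11e-05). Both were chosen after their values were seen, for their narrow spread within groups. The gene ugt-65 had a log2 fold change of 1.58 but at most 0.771 CPM in any library. The call of ugt-23 (17.004, 17.6 and 24.8 CPM in libraries labelled bcat-1 RNAi, and 10.2, 9.77 and 15.1 CPM in controls) was lost without control replicate 2. Among the calls of a fall, ugt-61 (log2 fold change -0.49) lost its call without RNAi replicate 1 or RNAi replicate 3, and ugt-45 (log2 fold change -0.72) kept its call without any 1 library.

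The 5 members that did not pass the filter on low counts were ugt-10, ugt-15, ugt-34, ugt-35 and ugt-42, all on chromosome V. They had 3 to 26 reads in libraries labelled bcat-1 RNAi and 0 to 7 reads in controls, so none reached 0.6 CPM. The gene ugt-35 had 8, 13 and 26 reads in libraries labelled bcat-1 RNAi and 2, 0 and 5 reads in controls, and ugt-34, which stands 149 bases from it, had 3, 14 and 11 reads in libraries labelled bcat-1 RNAi and 0, 1 and 1 reads in controls. A count of 0 allows up to 3 reads, for counting error only. A read of every member was found in each library labelled bcat-1 RNAi, and of 62 to 64 members in the controls. At least 1 RPKM was reached by 43 to 45 members in libraries labelled bcat-1 RNAi and by 38 to 40 in controls. Ensembl release 115 names another 2 genes of the family, ugt-66 (C23G10.6) and ugt-67 (H23N18.4), which the deposited table lists under their sequence names and which were not counted as members. The gene H23N18.4, which lies between ugt-10 and ugt-8, had 10, 11 and 10 reads in libraries labelled bcat-1 RNAi and 1, 0 and 2 reads in controls, and was called higher (log2 fold change 2.92, SE 0.58, edgeR adjusted p = 0.00236). It passed the filter on low counts only through the libraries labelled bcat-1 RNAi, where it is high. A call of a rise was thus favoured by the filter, and its values are given as a description. The gene C23G10.6 had 25 to 44 reads in libraries labelled bcat-1 RNAi and 25 to 51 in controls, and was not called.

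Most genes of UDP-sugar supply and use were lower. UDP-glucose is made from glucose by hexokinase, phosphoglucomutase and UTP-glucose-1-phosphate uridylyltransferase, and UDP-glucose dehydrogenase oxidises it to UDP-glucuronic acid. A list of 11 genes took in these enzymes with the UDP-galactose epimerase gale-1, the UDP-glucuronate decarboxylase sqv-1 and the UDP-sugar transporter sqv-7. All were tested, 1 was higher and 8, the last 3 among them, were lower (against 36% and 25.6% of all tested genes), and their log2 fold changes had a median of -0.36. The more abundant uridylyltransferase, K08E3.5, had 386, 373 and 321 CPM in libraries labelled bcat-1 RNAi, against 568, 661 and 532 CPM in controls (log2 fold change -0.71, SE 0.12, edgeR adjusted p = 0.00111). The scarcer uridylyltransferase D1005.2 was the exception, with 9.11, 10.5 and 9.02 CPM in libraries labelled bcat-1 RNAi, against 2.11, 0.970 and 1.0045 CPM in controls (log2 fold change 2.79, SE 0.28, edgeR adjusted p = 5.78e-05). In neither gene did the groups overlap, and the fall of K08E3.5 was much larger in CPM than the rise of D1005.2. The hexokinase F14B4.2 was lower (log2 fold change -0.35, edgeR adjusted p = 0.0182). These genes lie in the level classes in which 43.9% to 65.1% of all tested genes were lower, apart from D1005.2.

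Export of conjugates is a known role of ABC transporters of subfamily C, which worms carry as mrp-1 to mrp-8. Of these 8 genes 4 were higher, 2 were lower and 2 were not called, where 36% of all tested genes were higher and 25.6% lower. The gene mrp-2 had 93.4, 95.3 and 75.5 CPM in libraries labelled bcat-1 RNAi, against 14.1, 13.5 and 12.98 CPM in controls (log2 fold change 2.70, SE 0.12, edgeR adjusted p = 2.31e-06). The most abundant of them, mrp-4, had 161, 160 and 99.7 CPM in libraries labelled bcat-1 RNAi, against 320, 379 and 310 CPM in controls (log2 fold change -1.26, SE 0.18, edgeR adjusted p = 0.000416). In neither of these transporters did the groups overlap. The gene mrp-5, second in mean level, was higher (log2 fold change 0.51, edgeR adjusted p = 0.003). At the level of mrp-4, mrp-5 and mrp-7, above 151 CPM, 6.41% of all tested genes were higher and 65.1% lower. At the level of mrp-1 and mrp-2, 14.2% were higher and 43.9% lower. The genes called lower were mrp-4 and mrp-7.

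Of 14 regulators of xenobiotic and stress responses 5 were higher, 2 were lower and 7 were not called (median log2 fold change 0.15), where 36% of all tested genes were higher and 25.6% lower. The largest rise was that of the steroid hormone receptor gene daf-12, with 34.2, 31.8 and 27.5 CPM in libraries labelled bcat-1 RNAi, against 14.8, 12.3 and 14.6 CPM in controls (log2 fold change 1.16, SE 0.13, edgeR adjusted p = 0.000109). The largest fall was that of the nuclear receptor gene nhr-86 (log2 fold change -0.38, edgeR adjusted p = 0.00841). The gene of SKN-1, a main activator of detoxification genes in worms, was lower by a similar amount (log2 fold change -0.32, edgeR adjusted p = 0.0247), and daf-16 was not called (log2 fold change -0.13, edgeR adjusted p = 0.235). Both skn-1 and daf-16 lie in the level class above 151 CPM, where 65.1% of all tested genes were lower and the median log2 fold change was -0.40. In the class of nhr-86 43.9% were lower, and in that of daf-12 27.5% were higher.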

How the data were processed

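RNA of 6 samples, 3 per group, was sequenced by the authors as short single reads from TruSeq RNA libraries, which do not record strand. Per the labels, reads were mapped with TopHat2 2.0.6 to WBcel235 and uniquely mapped reads were counted with featureCounts, so near-identical copies and genes with overlapping exons are uncertain. The authors deposited these counts without normalization. The RPKM values deposited beside them equal the count divided by exon length and total count. Solved for exon length, they gave whole numbers (tolerance 0.001 base) in 100% of genes with reads.

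Genes with few reads were left out (filterByExpr), libraries were scaled by TMM, and groups were compared with edgeR 4.0.16 (quasi-likelihood, two-sided) in R 4.3.3, with Benjamini-Hochberg adjustment over all 16391 genes tested. The SE is the log2 fold change over the root of the F statistic. Alternatives used DESeq2 1.42.0 and limma 3.58.1. Fits were tested on simulated data in which few genes changed, evenly up and down, so scaling under the wide changes seen here was not covered. The members and lists were chosen with earlier results of these data known. Values per library were given for the 5 members highest in RPKM, the 8 largest called rises and falls at 1 CPM or more without overlap, and the 3 least changed uncalled members at 10 CPM or more. Other lists name their largest rise and fall and their 2 most abundant genes. Positions came from Ensembl release 115, in which 99.1% of identifiers were found. No sequences were used here.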

Additional observations from a re-analysis of the deposited data

How the results depend on the processing

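The count of members called higher stayed between 19 and 29 over 17 alternative settings, against 26, and 16 of the 26 calls held in every one. The settings tested unlike numbers of members, from 50 with a filter of 1 CPM in 3 samples to 65 with no filter. The calls of ugt-36, ugt-56 and ugt-65 did not hold only because the filter of 1 CPM left them untested. The count called lower stayed between 7 and 17, against 12, and 7 held in every setting. Against a fold of 1.5 instead of any change, 19 were higher and 7 lower. The median log2 fold change of the tested members was 0.38 with upper quartile scaling, 0.49 with library size only and 0.41 with limma on log2(RPKM + 0.1), against 0.24. Under the same settings the median of all tested genes was 0.28, 0.40 and 0.38, against 0.15. With no filter on low counts it was 0.55, above the 0.25 of the members, so the order of these medians depends on the filter. With DESeq2 size factors these medians were 0.12 for the members and 0.02 for all genes. Without control replicate 1 and RNAi replicate 3 together, 23 members were higher and 8 lower. The log2 fold change of bcat-1 ran from 0.19 to 0.79 when each library was left out, was 0.15 without control replicate 1 and RNAi replicate 3 together, and was called only without RNAi replicate 2 (edgeR adjusted p = 0.00291). In the same reduced set of 4 libraries ugt-47 and ugt-64, neither of them called, had log2 fold changes of -0.15 and 0.17. No paired analysis was possible because the labels give each library a number of its own, none shared between the groups, and the replicate numbers used here only name the libraries. Members under about 1 CPM rest on few reads a library, which limits what can be said of them. The cause of these shifts was not tested.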
